A study of Mus musculus with 8 samples.

Results

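The genes described here are 40 mouse genes of the glutathione and thioredoxin systems, the NRF2 pathway, the superoxide dismutases with catalase, and the metallothioneins. They were chosen as a list of genes, by name, out of 19751 genes with a named probe on the array, and each probe was named through its RefSeq accession. All 40 had a probe. A gene was tested when a probe of it was well above background on 4 or more arrays, which left 36, and each of the 36 was above background on all 8 arrays. *Gpx7*, *Gsta4*, *Mgst1* and *Nqo1* were not tested.

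The study examined what an RXR agonist does to corticotroph tumor cells, using Agilent mouse arrays read in the Cy3 channel alone. AtT20 cells, a line of murine pituitary corticotroph tumor cells, were grown to 50% confluence in 12-well plates. All samples then spent 48 hr in DMEM with 1% stripped FBS. The 4 control samples received no agonist, and the other 4 received HX630, a synthetic RXR pan-agonist, at 10 μM. AtT20 is 1 tumor cell line, and the labels do not say whether the replicates were separate cultures, so the p-values measure the spread between these samples, which may be technical. Controls were hybridized on 1 slide and HX630 samples on a separate one, scanned apart, so treatment and slide cannot be told apart.

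Glutathione and thioredoxin are the main carriers of reducing power by which cells remove peroxides and repair oxidized proteins, and both draw it from NADPH. Glutathione peroxidases and peroxiredoxins reduce peroxides, glutathione transferases attach glutathione to reactive compounds, and glutaredoxins release glutathione from proteins. NRF2, encoded by *Nfe2l2*, is the transcription factor that raises many of these genes when oxidants or electrophiles release it from KEAP1, which otherwise directs its degradation. Metallothioneins are small cysteine-rich proteins that bind zinc and copper and also react with oxidants. RXRs are nuclear receptors that pair with other nuclear receptors on DNA.

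The signal of a probe is given as the log2 processed intensity minus the 75th percentile of its array, so that 0 stands for that percentile. It ranks no gene against another, since each probe binds with its own strength. A gene with several tested probes is represented by the brightest. A gene was called when limma gave an adjusted p below 0.01 and the fold change exceeded 1.5, and "rose" and "fell" refer only to such genes. The 75th percentile intensity was 1335 to 1863 for controls and 1803 to 1899 for HX630, and between 69.7% and 73.5% of probes were well above background on each array. Arrays of a group correlated at 0.994 to 0.998 across probes, which are not independent replicates, against 0.978 to 0.984 between groups. Of 8 corticotroph markers, 7 were above background on all 8 arrays, *Pomc* and *Tbx19* included, and *Avpr1b* on none. Markers of other cells were detected in part. Above background on all 8 arrays were 3 of 9 for other pituitary hormone cells (*Gh*, *Lhb* and *Nr5a1*), 3 of 6 for fibroblasts (*Col1a2*, *Col3a1* and *Dcn*), 2 of 4 for endothelium (*Kdr* and *Pecam1*) and 4 of 5 for macrophages and leukocytes (*Adgre1*, *Csf1r*, *Itgam* and *Ptprc*). *Prl*, *Tshb*, *Cga*, *Lum*, *Pdgfra*, *Cdh5*, *Tek* and *Lyz2* were above it on none.

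Among the 36 tested genes, 4 rose with HX630 (*Txnip*, *Gstt1*, *Glrx* and *Txnrd2*) and 5 fell (*Mt2*, *Gsto1*, *Mt1*, *Hmox1* and *Prdx4*). These 9 genes make 25.0% of the 36, beside 19.5% of all 15318 tested genes called in either direction, 8.38% higher and 11.2% lower. The changes went both ways: 18 genes had a value above 0 and 18 below it, with a median log2 fold change of 0.01, against -0.03 over all tested genes. In 28 of the 36 genes (77.8%) the 4 arrays of a group all lay on one side of the other 4, beside 61.5% of all tested genes. Of the 24 genes with an adjusted p below 0.01, 15 changed by less than 1.5-fold, 8 of them higher and 7 lower; over all tested genes 51.2% had an adjusted p below 0.01. With each array scaled to its median or to its spike-in probes, 6 genes were called higher and 5 lower. Over all 15318 tested genes, 1708 were then called higher and 1414 lower with the median, and 2501 and 1030 with the spike-in probes. Scaling to the spike-in probes also moved the median of all tested genes from -0.03 to 0.19. The RNA is from whole cultures, so fewer cells of a kind and less RNA per cell cannot be told apart.

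**Figure D1:**
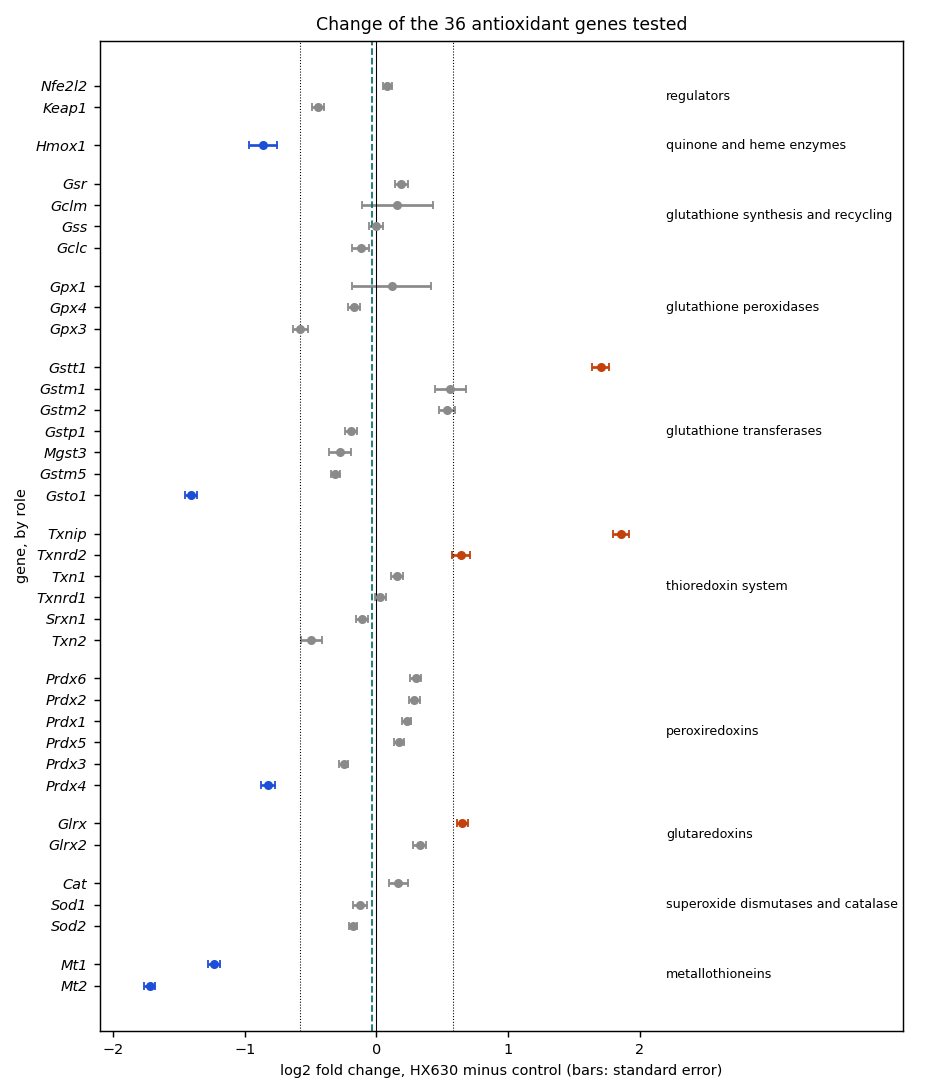
Log2 fold change of each of the 36 tested genes, HX630 minus control, grouped by role, with the standard error of the limma fit as bars (4 arrays per group). Red points are genes called higher, blue points genes called lower and grey points genes not called; dotted lines mark a 1.5-fold change and the dashed line the median of all tested genes, -0.03. The 9 called genes are spread over 6 of the 10 roles, from *Mt2* at -1.72 to *Txnip* at 1.86.

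*Mt1* and *Mt2*, the metallothioneins expressed in most tissues, both fell. Their genes lie next to each other on chromosome 8 and are known to be induced by zinc and cadmium through metal response elements, which the transcription factor MTF1 binds. The promoters of both are shown because the genes moved together; they are RefSeq sequence on GRCm38.p6, from 250 bases before to 50 bases after the start of transcription. Capitals mark each match to the metal response element core, TGCACNC or TGCGCNC on either strand.

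Mt1 chr8:94178839-94179138 (+ strand): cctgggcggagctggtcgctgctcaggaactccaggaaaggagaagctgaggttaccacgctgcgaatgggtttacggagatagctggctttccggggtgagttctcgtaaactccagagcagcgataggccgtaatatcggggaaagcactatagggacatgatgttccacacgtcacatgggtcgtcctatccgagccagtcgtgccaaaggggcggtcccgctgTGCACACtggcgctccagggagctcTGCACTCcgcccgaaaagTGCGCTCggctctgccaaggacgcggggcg
Mt2 chr8:94172368-94172667 (+ strand): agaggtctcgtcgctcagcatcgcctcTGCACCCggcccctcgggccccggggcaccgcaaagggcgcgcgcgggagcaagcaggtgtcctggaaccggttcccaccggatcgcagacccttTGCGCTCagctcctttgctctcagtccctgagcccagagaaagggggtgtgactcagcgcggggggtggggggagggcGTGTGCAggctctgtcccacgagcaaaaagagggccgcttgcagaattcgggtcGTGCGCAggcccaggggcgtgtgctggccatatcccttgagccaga

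The core was matched 3 times in the *Mt1* promoter and 4 times in that of *Mt2*. It is a short motif, found in 25.7% of all 32851 promoters of this length, and a match is a description of the letters and not a site shown to be bound. Of the 40 genes, 35 had a promoter in the table and 12 of these held the core at least once. Counted by promoter, as some genes have several, this was 14 of 46, beside the 25.7% of all promoters.

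The *Mt2* signal was 5.95, 6.03, 5.93 and 5.99 on the control arrays and 4.16, 4.30, 4.29 and 4.25 on the HX630 arrays. The lowest control lay well above the highest HX630 array, with no overlap. *Mt2* fell to 30.3% of the control, and its log2 fold change was -1.72 ± 0.043 (standard error; adjusted p = 1.21e-07). For *Mt1*, controls read 6.45, 6.49, 6.39 and 6.44 and HX630 arrays 5.21, 5.27, 5.26 and 5.11. The groups were again far apart, and *Mt1* fell to 42.6% of the control, or -1.23 in log2 units, where the standard error was 0.046 (adjusted p = 4.91e-07). By these probes the change of *Mt2* was the larger. The difference between the changes of *Mt1* and *Mt2*, taken within each array, was 0.49. Its 2-sided exact permutation p was 0.0286, the smallest that 70 regroupings of 8 arrays allow, and 0.039 after adjustment over 15 such pairs. Most pairs of probes of the same gene reached the same p. The test therefore compares probes and cannot show that the genes changed by different amounts. Under 6 ways of processing the arrays, *Mt1* lay between -0.998 and -1.23 and *Mt2* between -1.50 and -1.76.

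**Figure D2:**
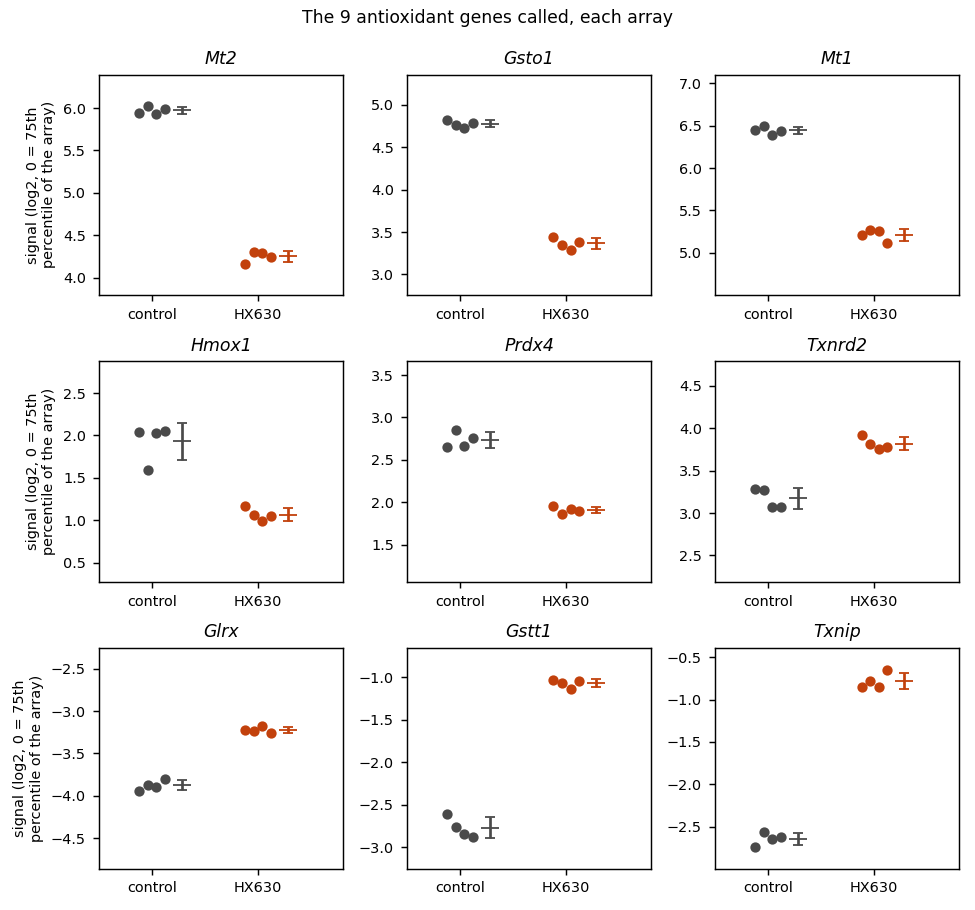
Signal of the 9 called genes on each array (points), with the mean and SD of each group beside them (n = 4 arrays each); the vertical axis is log2 signal with 0 at the 75th percentile of the array, and every panel spans the same number of log2 units. In each of the 9 panels the 4 control arrays (grey) and the 4 HX630 arrays (red) do not overlap; the low control point of *Hmox1* is control replicate 2 at 1.60.

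The 2 regulators were not called. *Nfe2l2* read 0.48, 0.51, 0.44 and 0.49 on the control arrays and 0.60, 0.57, 0.52 and 0.56 with HX630. Its HX630 arrays all lay above the controls, but by little: the log2 fold change was 0.08 with a standard error of 0.033 (adjusted p = 0.063). *Keap1*, whose product holds NRF2 in check, gave 2.38, 2.38, 2.23 and 2.30 in controls and 1.91, 1.86, 1.89 and 1.84 with HX630. All 4 HX630 arrays lay below all controls, and *Keap1* stood at 73.5% of the control (log2 fold change -0.44, standard error 0.044, adjusted p = 6.85e-05), short of the 1.5-fold threshold. Within arrays, the change of *Keap1* minus that of *Nfe2l2* was -0.53 (exact permutation p = 0.0286, adjusted over the 15 pairs p = 0.039). This too compares probes, and most pairs of probes of the same gene reached that p. The values of both genes are transcript levels, and NRF2 protein, the point at which KEAP1 acts, was not measured on the arrays.

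*Hmox1*, which encodes the heme oxygenase that stress induces, fell, and *Nqo1*, a quinone reductase much used as a marker of NRF2 activity, was barely detected. *Hmox1* read 2.04, 1.60, 2.03 and 2.05 on control arrays and 1.17, 1.06, 0.99 and 1.05 with HX630. Control replicate 2 stood below the other controls but above every HX630 array. The gene fell to 55.0% of the control (log2 fold change -0.86, standard error 0.107, adjusted p = 0.000257), and a second probe fell to 65.7%. Without control replicate 2 the change of the brightest probe was -0.97. For *Nqo1* the control arrays gave -7.02, -7.98, -7.36 and -9.22 and the HX630 arrays -5.41, -8.35, -8.77 and -8.87. HX630 replicate 1 was the single array on which *Nqo1* was well above background, so no change can be given.

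The 4 genes of glutathione synthesis and recycling were not called. *Gclc* and *Gclm* encode the subunits of glutamate-cysteine ligase, the rate-limiting enzyme of glutathione synthesis. *Gclc* had a log2 fold change of -0.12 with a standard error of 0.063 (adjusted p = 0.142). *Gclm* was measured poorly, at -2.67, -2.06, -1.85 and -2.11 in controls and -2.69, -2.05, -1.60 and -1.71 with HX630, where replicate 1 was the lowest of both groups. Its log2 fold change was 0.16 with a standard error of 0.269, so that a 1.5-fold change was not detectable with this spread. *Gss*, glutathione synthetase, lay at 99.9% of the control with a standard error of 0.052 on the log2 scale. *Gsr*, the reductase that restores glutathione, read 2.37 to 2.55 in controls and 2.61 to 2.70 with HX630, at 114% of the control (adjusted p = 0.00913), and its second probe differed by 0.12 (adjusted p = 0.193). The direction of *Gclc* and *Gss* turned when arrays were scaled to the spike-in probes.

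Nor did the 3 tested glutathione peroxidases pass both thresholds. *Gpx3*, the secreted form, came nearest, reading -1.47, -1.22, -1.31 and -1.33 on control arrays and -1.90, -1.88, -1.93 and -1.95 with HX630. The groups did not overlap, but the 1.49-fold lower level lay just under the fold threshold (standard error 0.055, adjusted p = 5.5e-05). *Gpx4*, which reduces lipid peroxides, stood at 88.9% of the control (adjusted p = 0.0132). *Gpx1*, the main cytosolic form, varied more within the groups than between them, from -4.66 to -3.54 in controls and from -4.37 to -3.45 with HX630. In both groups replicate 1 was the highest and replicate 4 the lowest. *Gpx7* was above background on 2 control arrays and on no HX630 array, at -6.59, -6.10, -7.61 and -6.57 in controls and -6.72, -7.19, -7.31 and -7.75 with HX630. The groups overlapped, and no fold is given.

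The glutathione transferases moved in opposite directions. *Gstt1*, of the theta class, rose from -2.61, -2.76, -2.84 and -2.88 on the control arrays to -1.03, -1.07, -1.14 and -1.04 with HX630. The groups were more than 1 log2 unit apart, and the signal was 326% of the control (log2 fold change 1.70, standard error 0.064, adjusted p = 4.93e-07). *Gsto1*, of the omega class, whose enzyme also reduces dehydroascorbate, went the other way. It read 4.83, 4.76, 4.73 and 4.79 in controls and 3.45, 3.35, 3.29 and 3.38 with HX630, again without overlap. *Gsto1* fell to 37.6% of the control (log2 fold change -1.41, standard error 0.044, adjusted p = 2.55e-07).

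The mu class gave values on both sides of 0. *Gstm1* lay at 147% of the control (log2 fold change 0.56, standard error 0.118, adjusted p = 0.00429) and *Gstm2* at 145% (0.54, standard error 0.058, adjusted p = 0.00012), both without overlap between groups and both just short of the fold threshold. Under the 23 other ways of processing or testing, *Gstm1* was called under 9 and *Gstm2* under 3. *Gstm5* lay below 0, at 80.5% of the control (adjusted p = 0.00014). The genes of this class are close paralogs, and the files used here hold no probe sequences, so signal shared between them was not tested. *Gstp1*, of the pi class, stood at 87.5% of the control (adjusted p = 0.00687) and *Mgst3*, a microsomal enzyme, at 82.6% (adjusted p = 0.022). *Gsta4* and *Mgst1* were above background on no array.

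In the thioredoxin system *Txnip* and *Txnrd2* rose and the other 4 genes were not called. *Txnip* encodes a protein that binds thioredoxin and restrains glucose uptake, and its gene is known to respond to glucose through carbohydrate response elements. Its promoter (RefSeq, GRCm38.p6) is shown because the gene had the greatest rise of the 36. Capitals mark 1 match to the carbohydrate response element, read here as CACGNG and a second CACGNG 5 bases after it, searched on both strands and found in 16 of the 32851 promoters (0.0487%) and in none of the other genes among the 35 with a promoter in the table.

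Txnip chr3:96557707-96558006 (+ strand): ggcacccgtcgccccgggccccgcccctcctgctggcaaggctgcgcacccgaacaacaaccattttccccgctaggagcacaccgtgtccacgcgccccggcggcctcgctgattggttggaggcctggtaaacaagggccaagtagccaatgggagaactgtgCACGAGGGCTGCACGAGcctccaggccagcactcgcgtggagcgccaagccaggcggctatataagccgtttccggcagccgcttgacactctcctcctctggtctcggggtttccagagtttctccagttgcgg

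*Txnip* read -2.74, -2.57, -2.64 and -2.63 on control arrays and -0.85, -0.78, -0.85 and -0.65 with HX630. All HX630 arrays lay far above the controls, at 363% of the control (log2 fold change 1.86, standard error 0.059, adjusted p = 2.72e-07). A second probe with the same accession did not share the rise. It gave -2.52, -2.73, -2.74 and -2.73 in controls and -2.78, -2.82, -2.79 and -2.93 with HX630, and its fitted change was -0.15 (standard error 0.063, adjusted p = 0.074). The changes of the probes differed by 2.01 within arrays (exact permutation p = 0.0286, adjusted over the 15 pairs p = 0.039). Which stretch of the transcript each probe covers was not looked at. The mean of both probes gave a log2 fold change of 0.85.

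*Txnrd2*, the mitochondrial thioredoxin reductase, read 3.28, 3.27, 3.07 and 3.07 in controls and 3.92, 3.82, 3.75 and 3.78 with HX630. The groups were separate, and the gene rose to 156% of the control (log2 fold change 0.65, standard error 0.068, adjusted p = 0.0001). *Txn2*, the thioredoxin of mitochondria, lay lower, at 71.0% of the control (log2 fold change -0.49, standard error 0.080, adjusted p = 0.0011), without overlap but under the fold threshold. The cytosolic counterparts changed little: *Txn1* stood at 111% of the control (adjusted p = 0.0183) and *Txnrd1* at 102% (adjusted p = 0.537). *Srxn1*, sulfiredoxin, which restores overoxidized peroxiredoxins, stood at 92.8% (adjusted p = 0.077).

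Several of these uncalled genes are textbook NRF2 targets. Windows of 29 bases from the promoters of 4 of them are shown because they hold the antioxidant response element core, TGACNNNGC on either strand, in capitals with 10 bases on each side (RefSeq, GRCm38.p6).

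Gclm chr3:122245413-122245441 (+ strand): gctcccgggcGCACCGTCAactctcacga
Srxn1 chr2:152105542-152105570 (+ strand): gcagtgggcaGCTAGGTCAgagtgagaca
Prdx1 chr4:116685456-116685484 (+ strand): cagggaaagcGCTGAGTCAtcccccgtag
Txnrd1 chr10:82859104-82859132 (+ strand): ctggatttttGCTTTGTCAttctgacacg

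In all 4 the core lies on the strand opposite to the gene, so the capitals show its reverse complement. It was matched in the promoters of 9 of the 35 genes (*Nfe2l2*, *Gclm*, *Gstm5*, *Mgst1*, *Txnrd1*, *Srxn1*, *Prdx1*, *Sod1* and *Mt2*). Counted by promoter, as some genes have several, this was 9 of 46, beside 12.4% of all promoters. Of these 9, *Mt2* was called, lower, *Mgst1* was not tested, and the other 7 were not called, with log2 fold changes from -0.31 for *Gstm5* to 0.23 for *Prdx1*. Over all tested genes 19.5% were called, a share from which so few genes cannot be set apart, and NRF2 activity was not tested. The matches in *Prdx1* and *Mt2* were also matches to TGACTCAGC, a form that holds an AP-1 site, found in 0.454% of promoters. A pair of AGGTCA copies with 1 base between them, the direct repeat to which RXR pairs can bind, was in 13 of all promoters (0.0396%) and in none of those of the 35 genes.

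The 6 peroxiredoxins, the thiol peroxidases that thioredoxin or glutathione recharges, each had groups that did not overlap and an adjusted p below 0.01, as did 61.5% and 51.2% of all tested genes, respectively. *Prdx4*, the form of the endoplasmic reticulum, fell. It read 2.66, 2.86, 2.66 and 2.76 on control arrays and 1.95, 1.86, 1.92 and 1.90 with HX630, which was 56.5% of the control (log2 fold change -0.82, standard error 0.053, adjusted p = 6.43e-06). *Prdx3*, of mitochondria, also lay below the control, at 84.1%. The other 4 lay above it without reaching 1.5-fold: *Prdx1* at 117%, *Prdx2* at 122%, *Prdx5* at 113% and *Prdx6* at 123% of the control. These directions were the same under all 6 ways of processing the arrays, although *Prdx3* came as near to 0 as -0.03 with the spike-in probes.

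Of the glutaredoxins, *Glrx*, the cytosolic enzyme, read -3.94, -3.87, -3.90 and -3.80 in controls and -3.22, -3.24, -3.18 and -3.26 with HX630. The groups were separate and *Glrx* rose to 157% of the control (log2 fold change 0.65, standard error 0.041, adjusted p = 5.7e-06). It was the one called gene that lost its call under another processing: with normexp background correction the log2 fold change was 0.30 (adjusted p = 0.0225). *Glrx2*, mainly mitochondrial, stood at 126% of the control (adjusted p = 0.000571), not called and without overlap.

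*Sod1*, the cytosolic superoxide dismutase, stood at 91.9% of the control (adjusted p = 0.085) and *Sod2*, the mitochondrial one, at 88.2% (adjusted p = 0.00176), and both signs turned with the spike-in probes. *Cat*, catalase, stood at 112% by its brightest probe (adjusted p = 0.086) and was not called. A second *Cat* probe read -7.39, -7.93, -6.77 and -6.80 in controls, of which 1 array was well above background, and -5.51, -5.38, -5.55 and -5.34 with HX630, where all 4 were. The probe passed the filter through the HX630 arrays and was near background in controls. Its fitted log2 fold change of 1.78 is therefore not a measured fold, and no p-value is given. For the same reason the difference of -1.61 between the changes of the probes, taken within arrays, is not exact. With normexp background correction that difference was -0.07. With both probes averaged, *Cat* had a log2 fold change of 0.97 and was called higher, a call that rests on the dim probe.

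**Figure D3:**
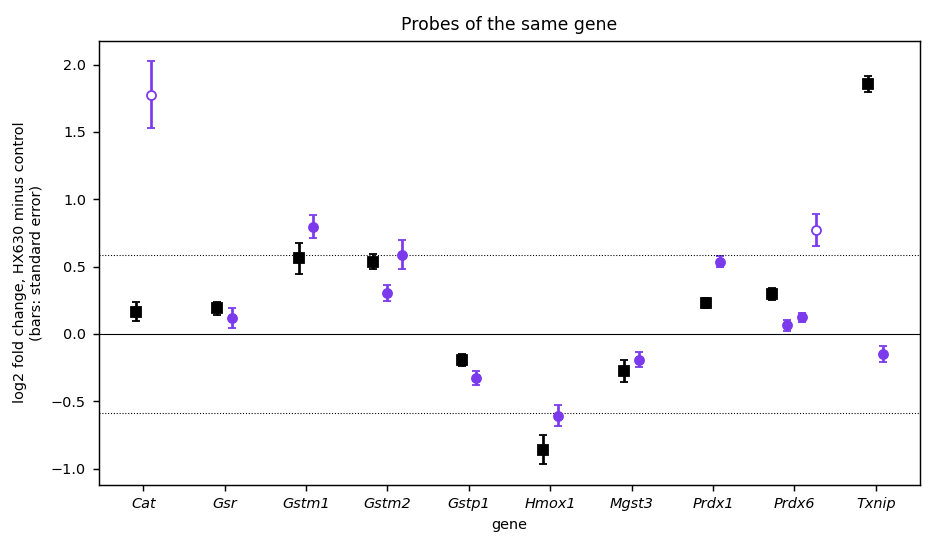
Log2 fold change of every tested probe of the 10 genes with more than 1, HX630 minus control, with the standard error of the limma fit as bars. Black squares are the brightest probe and purple circles the others, open where the probe was well above background on fewer than 8 arrays; dotted lines mark a 1.5-fold change. The probes of *Txnip* lie at 1.86 and -0.15. Those of *Cat* lie at 0.17 and a fitted 1.78, the latter near background in controls and not a measured fold. The probes of the other 8 genes keep one sign.

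In the other genes with several tested probes the sign was shared, with differences in size. Both *Gstm1* probes lay above 0, at 0.56 and 0.80, and the second passed both thresholds. The 3 *Gstm2* probes gave 0.54, 0.30 and 0.59. *Prdx1* gave 0.23 and 0.54, and *Gstp1* -0.19 and -0.33. The *Prdx6* probes gave 0.30, 0.06 and 0.12. A dim one, above background on no control array and on all 4 HX630 arrays, was at least 1.34-fold higher with HX630. It passed the filter through the HX630 arrays alone, so no p-value is given. Of the 15 pairs compared within arrays, 4 had an exact permutation p above the smallest possible: those of *Gsr* (p = 0.543), *Gstm1* (p = 0.200) and *Mgst3* (p = 0.114) and 1 of *Gstm2* (p = 0.629).

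**Figure D4:**
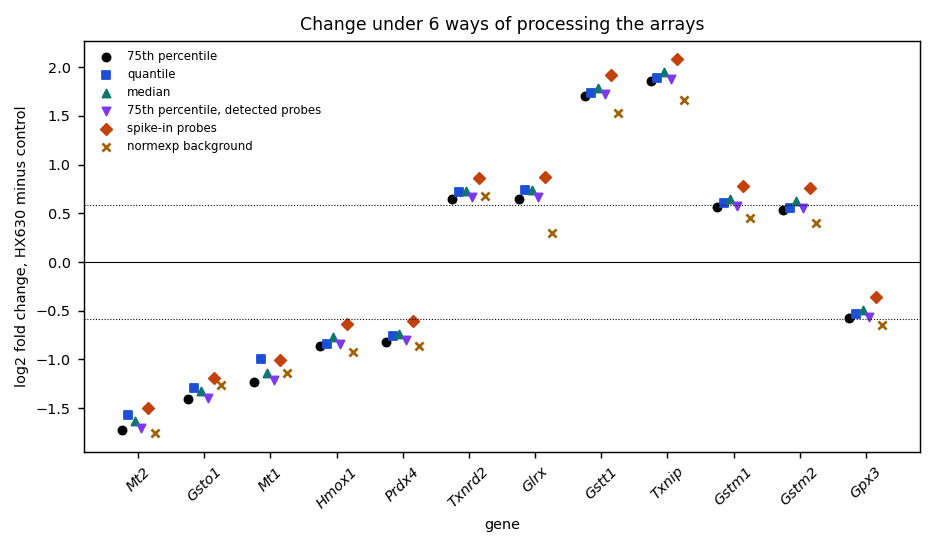
Log2 fold change, HX630 minus control, of the 9 called genes and of *Gstm1*, *Gstm2* and *Gpx3* under 6 ways of processing the arrays (symbols); dotted lines mark a 1.5-fold change. The 9 called genes keep their sign throughout, *Glrx* drops to 0.30 with normexp background correction, and the 3 others cross the 1.5-fold line under some of the 6.

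A list of 100 other genes of the same pathways was counted in the same way. On the array 99 were found and 92 tested, of which 13 rose and 15 fell, 30.4% in all, with a median log2 fold change of -0.04. Over all tested genes 19.5% were called, 8.38% higher and 11.2% lower, and the counts of the smaller lists that follow stand beside the same shares. The partners and controllers of NRF2 had 1 gene higher and 1 lower of 11: *Btrc*, which encodes a ubiquitin ligase subunit, rose by 0.91 and *Maff*, a small MAF protein that pairs with NRF2 on DNA, fell by 1.85 on the log2 scale. Among 22 other NRF2 targets 3 rose and 3 fell. *Blvrb*, a biliverdin reductase downstream of heme oxygenase, rose by 1.23 and *Pir*, pirin, by 1.04, while *Cbr3*, a carbonyl reductase, fell by 0.91. With normexp background correction the change of *Pir* was 0.21 and not called.

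The 24 other glutathione genes gave 4 higher and 3 lower. *Gsto2*, the neighbor in class of *Gsto1*, fell by 1.19 (log2, standard error 0.036), and *Cbs*, which makes cystathionine on the way to cysteine, fell by 0.96. *Mgst2*, a microsomal transferase, rose by 1.18, but with normexp background correction its value was 0.04 and not called. Also higher were *Gstm4*, *Gstm6* and *Gstm7* of the mu class, at 0.71, 0.89 and 0.66; these 3 are named because their values stood beside those of *Gstm1* and *Gstm2*, after the values were seen.

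Among 22 genes of thioredoxin-like, sulfoxide reductase and selenium proteins 2 rose and 5 fell. *Msrb2*, a mitochondrial methionine sulfoxide reductase, rose by 1.77 (standard error 0.064) and *Sesn3*, a sestrin, by 0.81, though with normexp it stood at 0.58 and was not called. *Arrdc4*, an arrestin-domain gene of the same family as *Txnip*, fell by 0.98 by its brightest probe, while a second probe gave -0.03, and their mean, -0.51, was not called. Of 13 genes of oxidant production, NADPH and metals 3 rose and 3 fell. *Idh1*, cytosolic isocitrate dehydrogenase and a source of NADPH, rose by 1.13. *Sod3*, the extracellular superoxide dismutase, fell by 1.24 (standard error 0.032), and *Slc39a14*, a zinc and iron importer, fell by 1.76 (standard error 0.060).

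**Figure D5:**
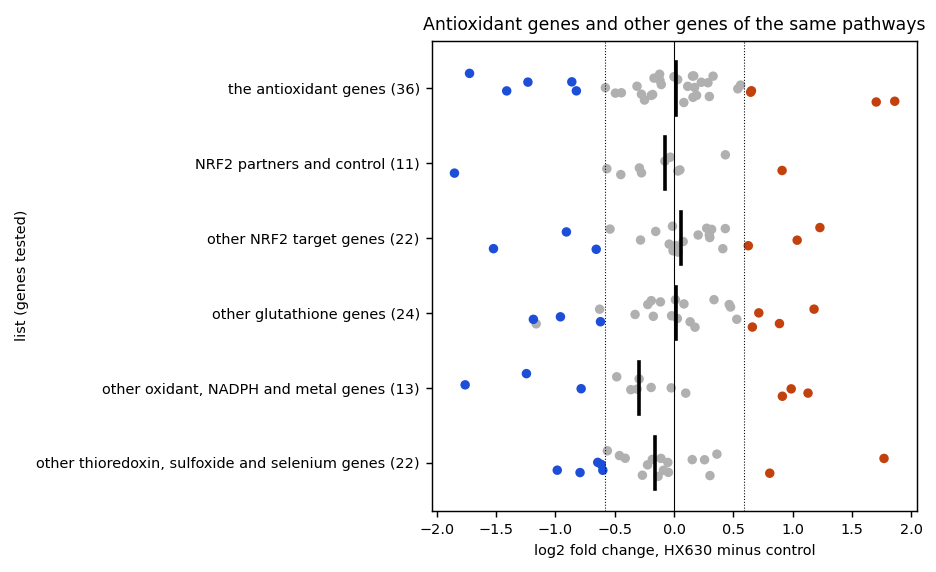
Log2 fold change, HX630 minus control, of the tested genes of the antioxidant list and of 5 lists of other genes of the same pathways; each point is a gene, red where called higher, blue where called lower and grey where not called, and the black bars are the medians of the lists. Dotted lines mark a 1.5-fold change. Every list holds genes called in both directions, and the medians lie between -0.29 and 0.05.

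Markers of other cell types were measured beside these results. Of the genes tested, 1 of 5 of other pituitary hormone cells (*Gh*), 1 of 4 of macrophages and leukocytes (*Csf1r*) and 1 of 2 of endothelium (*Pecam1*) were called lower, and 1 of 4 of fibroblasts (*Dcn*) higher, beside 11.2% of all tested genes called lower and 8.38% higher. In multiples of the 75th percentile of the array, the summed signal of the macrophage and leukocyte list was 5.44 to 7.57 in controls and 5.23 to 7.29 with HX630. The endothelial sum was 2.71 to 3.36 in controls and 2.15 to 2.64 with HX630. Each of these sums rests almost wholly on 1 probe. The *Itgam* probe had a log2 signal of 2.56 in controls and 2.55 with HX630, while other *Itgam* probes read -4.08 and -4.67 in controls. *Adgre1*, *Csf1r* and *Ptprc* had log2 fold changes of -0.41, -0.72 and -0.45, each without overlap. The *Kdr* probe read 1.54 in controls and 1.18 with HX630, and a second one -6.57 in controls. Neither sum measures how many such cells were present. The fibroblast sum was 0.109 to 0.130 and 0.116 to 0.164, and that of other pituitary cells 0.342 to 0.532 and 0.339 to 0.412. Their part in the changes of the antioxidant genes was not tested. Of the 7 corticotroph markers tested, *Crhr1* and *Neurod1* were called higher and *Pcsk1* and *Scg2* lower, and *Pomc*, *Tbx19* and *Pitx1* were not called. In the same multiples, the corticotroph sum was 367 to 447 in controls and 242 to 253 with HX630.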

How the data were processed

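Total RNA of 4 control and 4 HX630 samples was labelled with Cy3 and hybridized to 8 Agilent arrays. Per array, the authors deposited what Feature Extraction 10.7.3.1 gave: a processed intensity per spot (background subtracted, spatially detrended, not scaled between arrays) and the median intensities of spot and local background. They also deposited a table of log2 values made in GeneSpring, and 100% of its values matched, within 0.01, the processed signal in log2 after subtraction of the array's 75th percentile.

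The files were analysed in R 4.3.3 with limma 3.58.1. Of 44397 spots, 1377 control spots and outlier spots were left out, and spots of 1 probe were averaged (39429 probes). The 28543 probes well above background on 4 or more arrays were compared with lmFit and eBayes, with Benjamini-Hochberg adjustment over all of them. The median standard error was 0.066 on the log2 scale, and no probe was saturated. The number of arrays limits the precision. The code was tested on simulated data.

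RefSeq accessions named 26055 probes (66.1%) through a GRCm38.p6 table. The array design uses another genome build, so no probe coordinates are given, and promoter coordinates are those of RefSeq. *Gsta4*, *Hmox1*, *Gclc*, *Prdx6* and *Gsr* had no promoter in the table.

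The genes, lists and motifs were chosen with earlier results of these data known. All 40 genes are named, and of each other list up to 3 called genes with the largest changes among those above background on all 8 arrays. Outside this rule, *Gstm4*, *Gstm6* and *Gstm7* were added after their values were seen. The alternatives were quantile normalization, the median, detected probes or spike-in probes as the scale, the deposited log2 table, normexp (offset 50), no filter or a stricter one on dim probes, inclusion of outlier spots, the methods' t-test, an intensity trend in the variance, another threshold, averaged probes per gene, a replicate block, and leaving out each array in turn.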

Additional observations from a re-analysis of the deposited data

Results flagged for a closer look

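In 8 of 100 groups of 4 arrays (50 named genes in each group) 1 array stood apart from the other 3, by the gap to its nearest neighbor divided by the range (Dixon's ratio at the 95% level). Chance gives about 5 in 100. Among the antioxidant genes these were control replicate 2 for *Hmox1* (ratio 0.949, 1.60 against a mean of 2.04 over the other 3), for *Cat* (0.871, -1.44 against -1.23) and for *Gss* (0.842, -0.34 against -0.52). On HX630 arrays they were replicate 1 for *Gstm2* (0.933, -0.78 against -0.62), replicate 3 for *Sod1* (0.902, 6.21 against 6.13) and replicate 4 for *Gclc* (0.850, 1.21 against 1.39). Among the other genes of the pathways they were HX630 replicate 2 for *Slc39a14* (0.868, -1.37 against -1.18) and control replicate 4 for *Idh1* (0.853, -2.20 against -2.33). Control replicate 2 accounted for 3 of the 8.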

How the results depend on the processing

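Over the 23 alternatives to the 36 tested genes, 776 of 828 values kept their direction and side of the thresholds. The called genes other than *Glrx* kept their calls throughout. The median of the antioxidant genes (0.01) was 0.11 with quantile normalization, 0.10 with the array median, 0.24 with the spike-in probes, -0.055 with no filter on dim probes and -0.056 to 0.032 with 1 array left out, lowest without control replicate 4. At an adjusted p below 0.05 with no fold threshold, 13 antioxidant genes were higher and 14 lower, and of the other genes 31 and 38. Over all 15318 tested genes, 4549 were higher and 5210 lower at that threshold. With the spike-in probes 8 of the other genes were lower in place of 15, and over all tested genes 1030 in place of 1710. Probes called higher and lower (2131 and 3182) became 4181 and 1887 with the spike-in probes, 2831 and 2655 with the array median, 1240 and 2665 with normexp, and 7312 and 9407 at the looser threshold. The cause of these shifts was not tested.

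Signs turned for genes near 0. With the spike-in probes these were *Gclc* (0.10), *Gpx4* (0.052), *Gss* (0.22), *Gstp1* (0.028), *Sod1* (0.10), *Sod2* (0.041) and *Srxn1* (0.11). *Sod1* was 0.15 with quantile normalization and *Gpx1* -0.17 with normexp. *Gss* was 0.019 with quantile normalization, 0.017 with detected probes, 0.022 with normexp, 0.086 with the array median, and -0.022 to 0.045 with 1 array left out. Leaving out 1 array gave -0.0075 to 0.38 for *Gclm* and -0.10 to 0.27 for *Gpx1*. With normexp the difference between probes turned to 0.37 for the brightest and dimmest *Gstm2* probes and to 0.43 for those of *Prdx6*; the former was -0.11 to 0.0068 with 1 array left out.

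With the replicate number as a block, 4 antioxidant genes were higher and 5 lower, as without it, and 13 and 16 of the other genes. Over all 15318 tested genes, 1334 were higher and 1780 lower with the block. Deviations from the group mean correlated between same-numbered arrays at 0.52, -0.01, 0.24 and 0.38, and replicates 1 and 4 correlated best with their own number, while 2 and 3 did not. Since 1 of the 4 was not above 0.1 and no label ties the numbers to a shared batch, the samples were not treated as paired.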
